A study of Macaca mulatta with 20 samples.

Results

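The GIMAP genes encode GTPases of immunity-associated proteins, a family of small GTP-binding proteins expressed mostly in lymphocytes and encoded in 1 cluster on human chromosome 7. Their levels were followed in rhesus macaque blood before and after irradiation of the thorax. The probes of 7 genes were taken by name (GIMAP1, GIMAP2, GIMAP4, GIMAP5, GIMAP6, GIMAP7 and GIMAP8), each gene with 1 probe. The probe was well above background on at least 5 of the 20 arrays for 5 of the 7 genes, among 19961 probes of 34127 that passed the same filter.

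Many GIMAP proteins sit on intracellular membranes and take part in the development, quiescence and survival of T and B cells. Inherited loss of GIMAP5 in rodents leaves few peripheral T cells, and human GIMAP5 deficiency has been described with lymphopenia. Lymphocytes are among the most radiosensitive cells of the blood.

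RNA came from whole blood of male rhesus macaques of Chinese origin. It was depleted of globin transcripts and hybridized in 1 colour to Agilent whole human genome arrays. The first group was sampled before irradiation, and the others on day 2, day 5 and day 30 after a single 10 Gy X-ray exposure of the whole thorax, with 5 arrays a group. All of the groups sampled after irradiation had received the same dose, and no sham-irradiated group was analysed here, so time, repeated sampling and irradiation cannot be told apart. The study matched samples to controls by animal, except that 1 sample pooled RNA from 2 animals. The labels neither say which one it was nor tie the replicate numbers 1 to 5 to animals, and these numbers were used as pairs.

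Levels are the log2 processed signal of a probe minus the 75th percentile of its array, so that 0 is the 75th percentile. Levels of different probes were not set against each other. Between 50.9% and 58.8% of spots were well above background on 19 arrays, and 67.3% on the day 5 array of replicate 3, which stood apart. The groups lay at fixed positions on each of 5 slides (pre-irradiation at 1, day 2 at 2, day 5 at 3 and day 30 at 4), so position and group cannot be told apart. In bulk blood scaled in this way, fewer lymphocytes, less RNA per lymphocyte and more RNA from other cells cannot be told apart.

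The probes are 60 bases long and were designed on human transcripts, and their match to the rhesus transcripts was not examined. The following sequences are shown because they show which stretch of each gene was read in a measured pair, GIMAP2 and GIMAP7, and in GIMAP4, whose probe gave almost no signal. The probes of the 7 members share runs of at most 7 bases with each other. They were not compared with the transcripts of the other members, so whether a probe also reads another member was not tested.
GIMAP2: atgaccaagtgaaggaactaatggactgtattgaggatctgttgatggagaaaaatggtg
GIMAP4: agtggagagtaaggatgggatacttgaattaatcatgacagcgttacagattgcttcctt
GIMAP7: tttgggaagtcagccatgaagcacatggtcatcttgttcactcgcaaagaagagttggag
In hg19, the build named in the file headers, these lie on the plus strand at chr7:150389949-150390008, chr7:150270058-150270117 and chr7:150217417-150217476. The cluster runs from the GIMAP8 probe, which starts at 150175990, to the GIMAP5 probe, which ends at 150440254. GIMAP6 is the only one of the 7 whose probe lies on the minus strand. In the rhesus annotation (T2T-MMU8v2.0) the 7 genes are also neighbours, on chromosome 3, in the order GIMAP8, GIMAP7, GIMAP4, GIMAP6, GIMAP2, GIMAP1 and GIMAP5, with 1 unnamed locus between GIMAP8 and GIMAP7.

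No GIMAP probe passed the test in any of the 6 comparisons between groups (limma, blocked by replicate number, p under 0.005 and an FDR under 10% over all probes). At an unadjusted p under 0.05, GIMAP1 and GIMAP5 were lower on day 2 (6.55% of all probes were) and GIMAP5 was lower on day 30 (10.1% were) than before irradiation, and GIMAP7 was lower on day 30 than on day 5 (6.64% were). The test called 0.0601% of all probes on day 2, 0.0501% between day 30 and day 2, and 0.0% in the other 4 comparisons. The 12 calls on day 2 rested on the choice of replicates, with 588 without replicate 2, 3 without replicate 3 and 0 without any 1 of the others. The 10 calls between day 30 and day 2 became 66 without replicate 2 and 0 without any 1 of the others. Other settings also moved the counts over all probes widely. The 5 genes were lower on average on day 2, as were 55.1% of all probes tested, with a median log2 change of -0.32 against -0.04 for all probes.

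**Figure D1:**
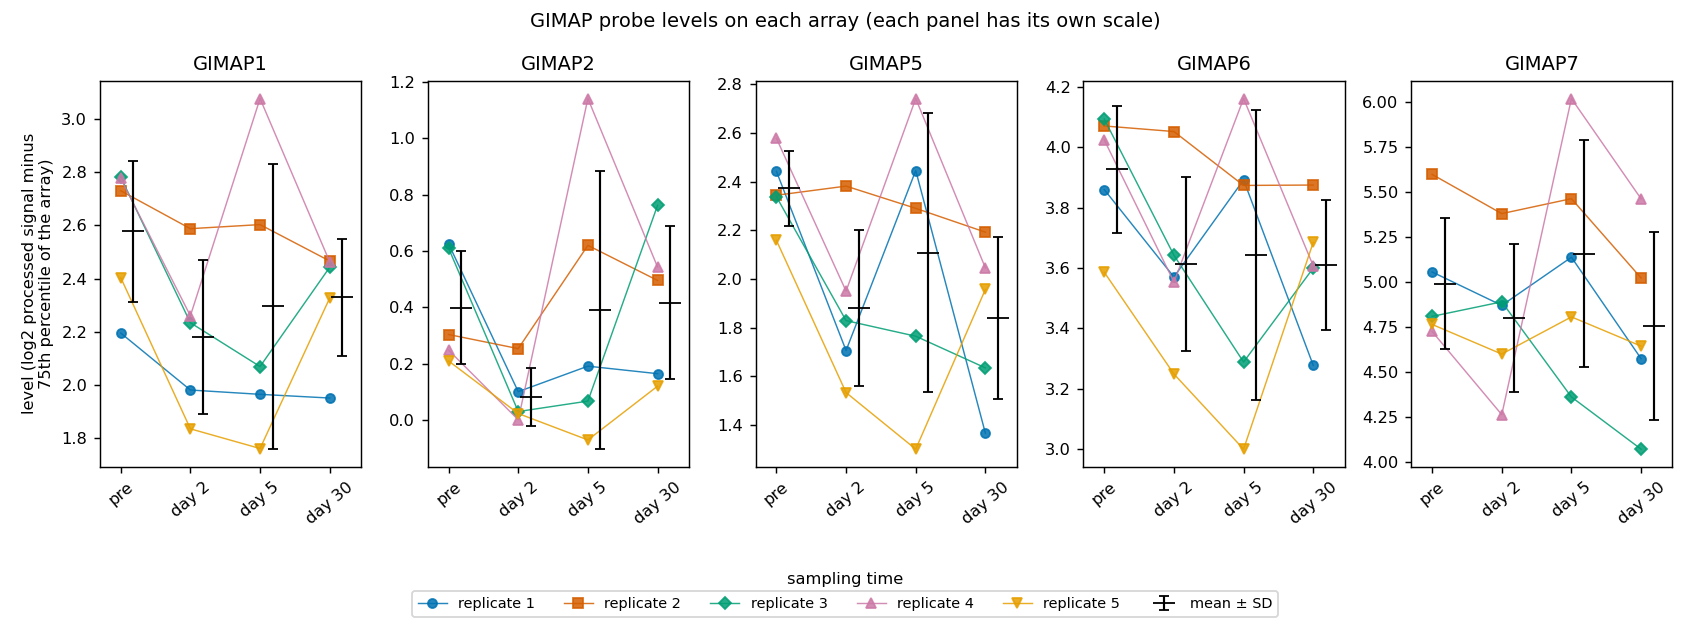
Levels of the 5 measured GIMAP probes on the 20 arrays, 1 panel a gene with its own vertical scale (log2 processed signal minus the 75th percentile of the array) against sampling time. Coloured points joined by lines are the arrays of 1 replicate number, and the black bars are the group mean and SD (n = 5). The day 5 arrays spread most for all 5 genes, with replicate 4 the highest in each panel.

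GIMAP5, which sits in lysosomal membranes and is needed for long survival of peripheral T cells, had levels of 2.44, 2.34, 2.34, 2.58 and 2.16 before irradiation in the order of replicates 1 to 5. On day 2 they were 1.71, 2.38, 1.83, 1.95 and 1.53. All were below the pre-irradiation array of the same number except that of replicate 2, and the groups overlapped through it. The day 2 difference was -0.49 on the log2 scale (SE 0.16, 95% interval -0.87 to -0.11, limma, adjusted p = 0.252). On day 5 the levels were 2.45, 2.29, 1.76, 2.74 and 1.30. Replicates 1 and 4 were at or above their pre-irradiation values, while replicates 3 and 5 were the lowest. On day 30 the levels were 1.37, 2.19, 1.63, 2.04 and 1.96. These were below the pre-irradiation array in 5 of 5 pairs, as in 10.5% of all probes, although the highest overlapped the lowest pre-irradiation level. The day 30 difference was -0.53 (SE 0.19, interval -0.98 to -0.09, limma, adjusted p = 0.223), or 30.9% lower signal. With normexp background correction the same difference was -0.56 and passed the test (limma, adjusted p = 0.0866). That correction called 952 of all 19961 probes on day 30, where 0 were called without it.

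GIMAP1, which lies in the endoplasmic reticulum and Golgi membranes and is required for mature T and B cells, had pre-irradiation levels of 2.20, 2.73, 2.78, 2.78 and 2.40. On day 2 they were 1.98, 2.59, 2.23, 2.26 and 1.84. Every day 2 array was below the array of its own number, as for 8.19% of all probes, but the groups overlapped. The difference was -0.40 (SE 0.15, interval -0.74 to -0.06, limma, adjusted p = 0.283). On day 5 the levels were 1.96, 2.60, 2.07, 3.08 and 1.76. On day 30 they were 1.95, 2.47, 2.44, 2.46 and 2.33. The day 5 values ran above and below all other groups, and the day 30 values were close together except for replicate 1, which was the lowest. The differences from pre-irradiation were -0.28 on day 5 (SE 0.19, adjusted p = 0.594) and -0.25 on day 30 (SE 0.16, adjusted p = 0.442, limma). The day 30 array was lower in 5 of 5 pairs, as for 10.5% of all probes.

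GIMAP6, which binds the ATG8 protein GABARAPL2 and is tied to autophagy, had levels of 3.86, 4.07, 4.09, 4.02 and 3.59 before irradiation. On day 2 they were 3.57, 4.05, 3.64, 3.55 and 3.25. All 5 pairs were lower on day 2 (8.19% of all probes were), replicate 2 by the least, and the groups overlapped. The difference was -0.31 (SE 0.14, limma, adjusted p = 0.359). On day 5 the levels were 3.89, 3.87, 3.29, 4.16 and 3.0007. On day 30 they were 3.28, 3.87, 3.60, 3.61 and 3.69. Replicates 3 and 5 were lowest on day 5, and replicate 1 was lowest on day 30. The differences from pre-irradiation were -0.28 on day 5 (adjusted p = 0.588) and -0.32 on day 30 (adjusted p = 0.381, limma).

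GIMAP2 and GIMAP7 are known to interact, GIMAP2 on the surface of lipid droplets and GIMAP7 as a stimulator of its GTP hydrolysis. GIMAP2 had levels of 0.63, 0.30, 0.61, 0.25 and 0.21 before irradiation. On day 2 they were 0.10, 0.25, 0.03, 0.00 and 0.02. The day 2 arrays were tighter than those of any other group. They were lower in all 5 pairs (8.19% of all probes were), although the groups overlapped through replicate 2. The difference was -0.32 (SE 0.15, limma, adjusted p = 0.373). On day 5 the levels were 0.19, 0.62, 0.07, 1.14 and -0.07. On day 30 they were 0.17, 0.50, 0.76, 0.54 and 0.12. Replicate 4 was highest on day 5 and replicate 3 on day 30. The differences from pre-irradiation were -0.01 on day 5 and 0.02 on day 30, and their signs changed with the replicate left out.

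GIMAP7 had levels of 5.06, 5.60, 4.81, 4.73 and 4.76 before irradiation. On day 2 they were 4.87, 5.38, 4.89, 4.26 and 4.6001. Replicate 2 was highest in both groups, and the groups overlapped widely. The difference was -0.19 (SE 0.15, limma, adjusted p = 0.557). On day 5 the levels were 5.14, 5.46, 4.36, 6.02 and 4.81. On day 30 they were 4.57, 5.02, 4.07, 5.46 and 4.64. Replicate 4 was highest at both later times, and replicate 3 lowest. The day 5 difference of 0.17 (SE 0.25, adjusted p = 0.826, limma) turned to -0.11 without replicate 4. The day 30 arrays were below the day 5 arrays in 5 of 5 pairs, as for 5.88% of all probes, by -0.40 (SE 0.17, limma, adjusted p = 0.586).

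**Figure D2:**
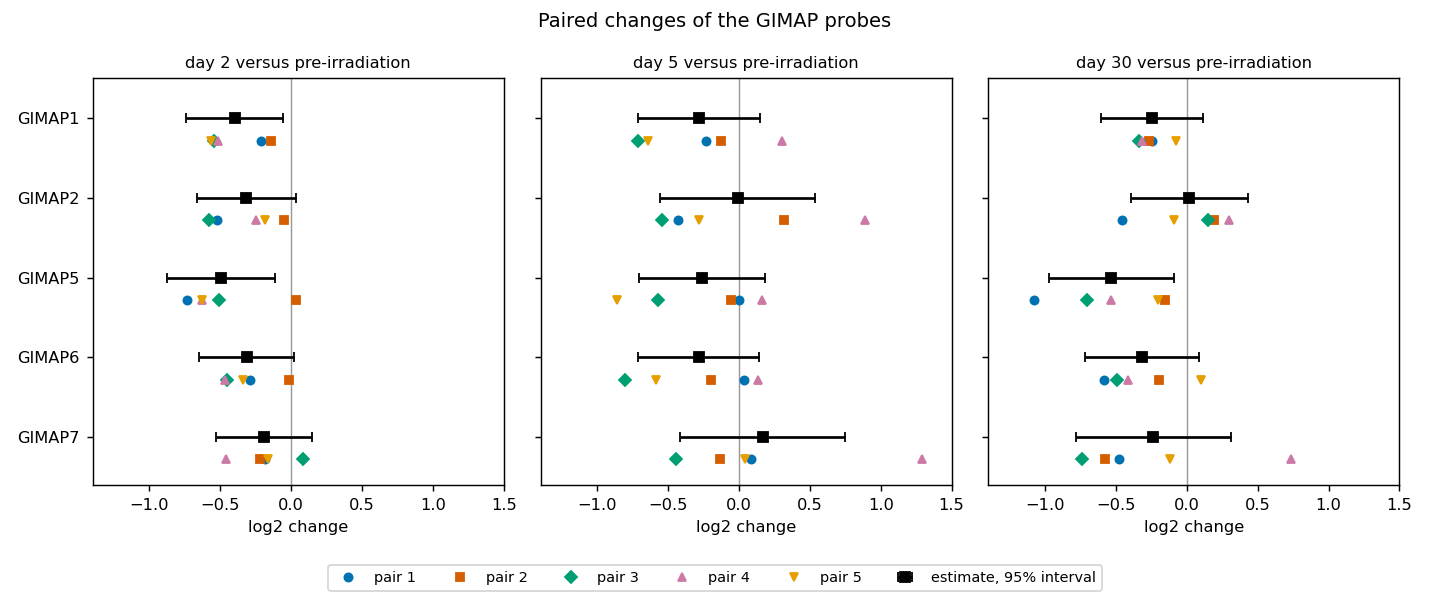
Log2 change of the 5 GIMAP probes against pre-irradiation on day 2, day 5 and day 30. Black squares are the limma estimates with 95% intervals and coloured points the 5 pairs. On day 2 all 5 estimates are below 0, and only the intervals of GIMAP1 and GIMAP5 do not reach it.

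The order of the mean levels differed between genes. The pre-irradiation mean was the highest of the 4 groups for GIMAP1, GIMAP5 and GIMAP6 (2.58, 2.37 and 3.93), the day 30 mean for GIMAP2 (0.42) and the day 5 mean for GIMAP7 (5.16). The lowest mean was that of day 2 for GIMAP1 and GIMAP2 (2.18 and 0.08) and that of day 30 for GIMAP5, GIMAP6 and GIMAP7 (1.84, 3.61 and 4.76). No neighbours in these orders passed the test. The SD over the 5 day 5 arrays was the largest of the 4 groups for each gene, from 0.48 for GIMAP6 to 0.63 for GIMAP7. It was 0.15 to 0.36 before irradiation, 0.10 to 0.41 on day 2 and 0.22 to 0.52 on day 30.

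Between the times after irradiation, the median log2 change of the 5 genes was 0.23 from day 2 to day 5, -0.00 from day 2 to day 30 and -0.03 from day 5 to day 30. GIMAP2 was higher on day 30 than on day 2 in 5 of 5 pairs (7.03% of all probes were), by 0.33 (SE 0.16, limma, adjusted p = 0.414). The pairs differed more than the days. The median over the 5 genes from day 2 to day 5 was 0.82 in pair 4 and between -0.16 and 0.27 in the others. From day 5 to day 30 it was -0.60 in pair 4 and 0.57 in pair 5.

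Without replicate 3, whose day 5 array stood apart, the day 5 differences from pre-irradiation were -0.17 for GIMAP1, 0.12 for GIMAP2, -0.19 for GIMAP5, -0.15 for GIMAP6 and 0.32 for GIMAP7. Arrays on 1 slide came from different replicate numbers, and the differences within slides were also mixed. For GIMAP5 they ran from -0.87 to 0.04 on day 2 (lower on 4 of 5 slides) and from -0.97 to -0.25 on day 30 (lower on all 5). For GIMAP1 on day 2 they ran from -0.89 to 0.06. GIMAP2 on day 2 (-0.62 to -0.15) and GIMAP7 on day 30 (-0.69 to -0.03) were also lower on all 5. GIMAP7 on day 2 was lower on 2 of 5. The share of all probes lower on every slide was not counted. Under normexp background correction the median change of the 5 genes on day 2 was -0.70, while the median of all probes was 0.17, and none of the 5 was called.

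The GIMAP4 probe was well above background on 1 array and the GIMAP8 probe on none, so neither was tested. GIMAP4 acts in the secretory pathway of T cells, and GIMAP8 carries several GTPase domains in 1 protein. The processed signal of the GIMAP4 probe was 3.55 to 9.15 before irradiation and up to 14.5 on day 2. It was 30.4 on the day 5 array of replicate 3. The GIMAP8 probe gave 3.9 to 12.5 before irradiation and at most 18.5 on day 30. By contrast the dimmest measured GIMAP probe, that of GIMAP2, gave 183.3 or more on every array. Whether the human probes fail to bind the rhesus transcripts was not tested.

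The measured GIMAP genes varied together over the 20 arrays. These correlations are a description over arrays that share animals, slides and a scaling. The highest was between GIMAP5 and GIMAP6 (Pearson r = 0.92, Spearman rho = 0.89, and r = 0.88 without the 2 arrays farthest from the GIMAP5 median). The lowest Pearson r was between GIMAP2 and GIMAP7 (r = 0.50, rho = 0.50), and the lowest rho between GIMAP1 and GIMAP7 (r = 0.52, rho = 0.45, and r = 0.36 without the 2 arrays farthest from the GIMAP1 median). GIMAP7 had r of at most 0.63 with any other member. With the mean of each replicate number subtracted, GIMAP5 and GIMAP6 still had r = 0.91.

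Outside the family, the 10 genes most like the GIMAP mean over the 20 arrays had Pearson r from 0.85 to 0.89. Among them were 2 transcripts named only by ENST00000610439 and ENST00000613594, EIF2D, GPR171, EEF1D, UBASH3A, TUFM, NPRL2 and ATP5G2. UBASH3A is a regulator of T cell receptor signalling (r = 0.86, rho = 0.85). EIF2D and EEF1D act in translation and TUFM in mitochondrial translation. With the mean of each replicate number subtracted, 4 of the 10 remained among the first 10, and 7 did so under quantile normalization.

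Levels of lymphocyte marker genes are given beside those of the GIMAP genes, and their part in the GIMAP values was not tested. All 18 T cell markers were measured and all 18 were lower on day 2, day 5 and day 30, with medians of -0.44, -0.31 and -0.47. None was called at any of these times, and 9, 5 and 9 were lower at an unadjusted p under 0.05 (limma), as were 6.55%, 3.82% and 10.1% of all probes. The T cell marker levels were also summed after conversion from log2 to the linear scale, where bright probes weigh most. The sums were 228.3 to 325.7 before irradiation, 163.5 to 266.5 on day 2, 141.9 to 359.6 on day 5 and 149.1 to 262.9 on day 30. The defining genes CD3D, CD3E and CD3G differed on day 2 by -0.57, -0.20 and -0.63. The genes of smallest p in the T cell list on day 2 were CD8A (-0.86, SE 0.17) and CD2 (-0.65, SE 0.17). The list did not move as 1 afterwards. From day 2 to day 30, 12 of the 18 were higher and 6 lower. CD8A and CD2 then differed by 0.65 and 0.38, and CD4 and CD3E by -0.56 and -0.45. Whether CD8A and CD2 were read from T cells alone was not tested.

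The pairs lined up in part. On day 2 the median T cell change was -0.05 in pair 2 and -0.47 to -0.89 in the others, and the GIMAP median was -0.05 in pair 2 and -0.29 to -0.51 in the others. Pair 2 also had the day 2 median nearest 0 in the NK cell (-0.32), neutrophil (0.03) and platelet (0.33) marker lists. It did not in the B cell (-0.66) and monocyte (0.65) lists. On day 5 the GIMAP median was 0.30 in pair 4, where the T cell median was -0.00, and -0.59 in pair 5, where it was -0.81. In these 2 pairs the NK cell median was 0.19 and -1.88, and the B cell median -0.55 and -0.26. So the likeness of the pairs was not particular to T cells.

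Of the 14 NK cell markers measured, 13 were lower on day 2, all 13 at an unadjusted p under 0.05 (limma, 6.55% of all probes were). The test called 1, KLRB1 (-1.67, SE 0.21, adjusted p = 0.0965, limma), as it did 0.0601% of all probes. The NK median of -1.33 on day 2 and -0.04 on day 30 ran wider than that of the GIMAP genes. Of the 13 B cell markers measured, all were lower on day 2 (median -0.54), but MS4A1 and PAX5 had no probe that passed the filter. Markers of other cells were higher on day 2, with medians of 0.58 for 9 monocyte, 0.997 for 11 neutrophil and 1.47 for 9 platelet genes. Their medians on day 5 were 0.41, 0.64 and 0.46. On day 30, when GIMAP5 was lower at an unadjusted p under 0.05, they were 0.53, 1.03 and -0.05.

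**Figure D3:**
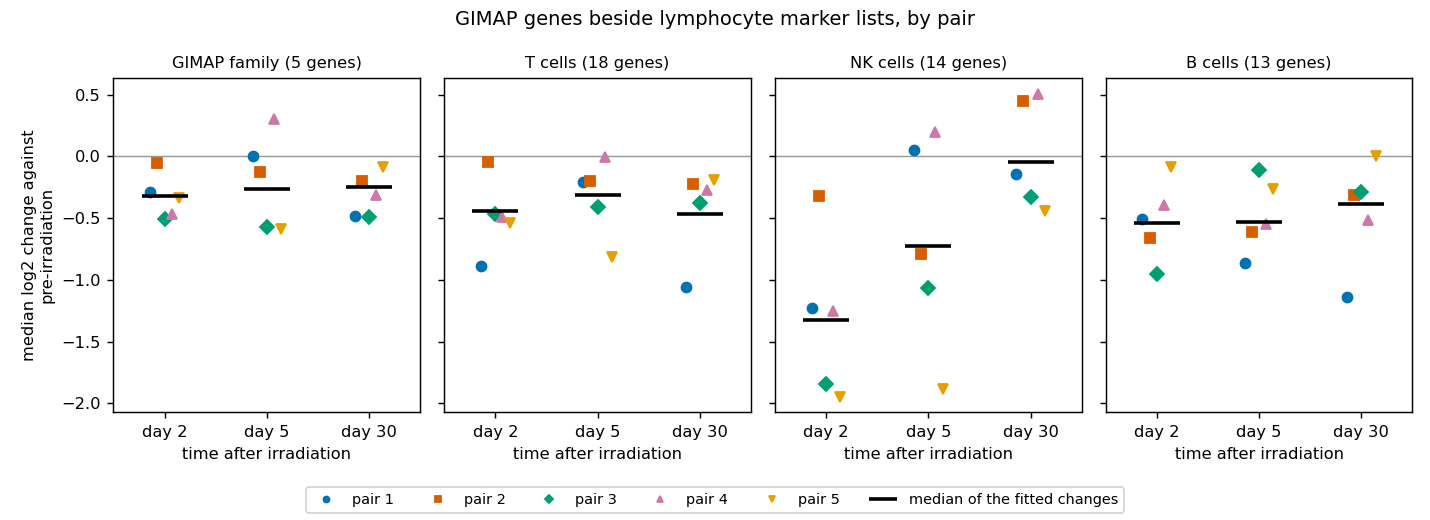
Median log2 change against pre-irradiation of the GIMAP genes and of T, NK and B cell marker lists on day 2, day 5 and day 30. Coloured points are the 5 pairs and the black bar the median of the fitted changes. The NK list reaches -1.33 on day 2 and -0.04 on day 30, while the GIMAP medians stay between -0.32 and -0.25.

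Genes of naive lymphocyte survival and quiescence were mostly lower on day 2, 13 of 19 measured, with a median of -0.25. At an unadjusted p under 0.05 (limma), 7 were lower, as were 6.55% of all probes, and 1 was higher. None was called on day 2, day 5 or day 30. IL7R, the receptor for the survival cytokine interleukin 7, differed by -0.68 on day 2 (SE 0.18, adjusted p = 0.198, limma). S1PR1, which guides the exit of lymphocytes from lymph nodes, differed by -0.60 (SE 0.16, adjusted p = 0.197, limma). On day 30, 14 of the 19 were lower, with a median of -0.16, and IL7R differed by -0.64 (SE 0.23). STAT5B, a transcription factor downstream of interleukin 7, went the other way that day, by 0.64 (SE 0.19, adjusted p = 0.169, limma).

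A further list held ATG8 proteins and the BCL2 family, which GIMAP proteins are tied to, and the autophagy genes ATG5, ATG7 and SQSTM1. Its genes were mostly higher on day 2, 12 of 15 with a median of 0.30 and no call. MAP1LC3A, an ATG8 protein, differed by 0.91 on day 2 (SE 0.17, adjusted p = 0.145, limma), and GABARAPL2, the GIMAP6 partner, by 0.43 (SE 0.15, adjusted p = 0.259). On day 30, 10 of the 15 were higher and 5 lower, with a median of 0.27. BCL2, the survival factor, went the other way, by -1.23 (SE 0.24, adjusted p = 0.126, limma). It was lower in 5 of 5 pairs, as were 10.5% of all probes. BCL2L11, next by p, differed by 0.43 (SE 0.17). Over the 20 arrays the list had a median r of -0.42 with the GIMAP mean, compared with -0.54 for the monocyte and -0.47 for the neutrophil markers.

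Of 18 genes that flank the cluster on chromosome 7, 15 were measured. On day 2, 12 were lower, with a median of -0.15 and no call, and on day 30 also 12, with a median of -0.21. ACTR3C differed most by p on day 2 (-0.80, SE 0.18, adjusted p = 0.166, limma). Their median r with the GIMAP mean was 0.24, compared with 0.02 for all 15913 genes and 0.72 for the T cell markers.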

How the data were processed

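The authors deposited 1 Feature Extraction table per array (version 12.0.2.2 per the file headers, 10.7 in the submitters' processing notes), whose processed signal is a background-subtracted intensity, and a table of log2 values for 5884 probes, GIMAP7 alone of the family. From the intensity, outlier spots were left out, the log2 spots of each probe were averaged, and the 75th percentile over all non-control spots was taken off. A probe was tested if 5 or more arrays had at least 50% of its spots well above background, and if 4 of 5 pairs had a value. The percentile over averaged probes, and any spot in place of 50%, were used first. They were replaced after their counts of calls had been seen, to match an earlier analysis of these data, and are given as alternatives.

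Groups were compared 2 at a time with limma 3.58.1 in R 4.3.3, with the replicate number as a block. Calls needed p under 0.005 and a Benjamini-Hochberg FDR under 10%. The script was tested on simulated data. Pairing comes from the study's matching by animal, although the labels do not tie replicate numbers to animals. Same-number arrays deviated together with r from -0.16 to 0.65, over 0.1 in 25 of 30 cases, and in 9 of the 30 another number correlated better. The precision is limited by 5 arrays a group. Where 1 probe a gene was needed, the one with the highest mean level was taken. The text names each GIMAP probe and, of other lists, called genes and those of smallest p. Members and lists were chosen with earlier results of these data known. Of the genes most like the GIMAP mean, 1 is not reported here.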

Additional observations from a re-analysis of the deposited data

Results flagged for a closer look

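Of 50 sets of 5 values (group levels and paired changes of the 5 measured genes), 2 had a value far from the rest, where chance flags about 1 in 20. GIMAP1 on day 30 was 1.95 in replicate 1 and 2.33 to 2.47 in the others. The GIMAP1 change from day 2 to day 5 was 0.82 in pair 4 and -0.16 to 0.02 in the others. The processed signal of the GIMAP4 probe, which was not tested, was 3.55 to 9.15 before irradiation and up to 14.48 on day 2. It was 30.42 on the day 5 array of replicate 3. That array had the highest share of spots well above background (67.3%), and the part of this in the GIMAP4 signal was not tested.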

How the results depend on the processing

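No GIMAP probe was called under any of the alternatives run except normexp background correction, under which 1 was called on day 30 (GIMAP5). It was 1 of 952 calls among 19961 probes. Normexp also moved the median of the 5 genes to -0.70 on day 2 and to 0.31 from day 2 to day 30, and moved the median of all probes by up to 0.20. Without the replicate block, the pairing was dropped and the GIMAP5 change stayed at -0.49 on day 2 (adjusted p = 0.429) and -0.53 on day 30 (adjusted p = 0.300). The scan block is the slide block, since each slide had its own scan. Small uncalled values turned sign and the cause was not tested. Under normexp, GIMAP2 was 0.0093 on day 5 and -0.0002 on day 30 against pre-irradiation. From day 2 to day 30, GIMAP5, GIMAP6 and GIMAP7 were then 0.14, 0.35 and 0.27. From day 5 to day 30, GIMAP1 and GIMAP2 were -0.0485 and -0.0095. Under median scaling, GIMAP1 and GIMAP6 were -0.0282 and -0.11 from day 2 to day 5. GIMAP5 and GIMAP6 were 0.0001 and 0.0364 from day 2 to day 30, and GIMAP6 was 0.15 from day 5 to day 30. Under quantile normalization GIMAP6 was 0.0108 from day 2 to day 30.

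The percentile over averaged probes, added after seeing the data, gave GIMAP6 0.0084 from day 2 to day 30 and 0.0018 from day 5 to day 30, alone or with any spot well above background. It called 4 probes of all tested on day 30 against pre-irradiation, where the percentile over spots called 0, and no GIMAP probe. Calls on day 30 against pre-irradiation numbered 952 of 19961 probes under normexp and 695 of the 15339 well above background on all 20 arrays. They numbered 451 of 19961 with the intensity trend and 334 of only 5653 with the deposited values. Of 19961 probes, 121 were called in 1 fit of all arrays and 1 with each probe tested on its own. On day 2, where 12 were called, the counts were 0, 190, 200, 327, 343 and 0 in the same order of settings, 1 with the slide block and 0 without the replicate block, without the filter, at FDR under 5% or under quantile normalization.

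With 1 replicate left out, GIMAP2 ran from -0.23 to 0.12 on day 5 and from -0.0516 to 0.14 on day 30, and GIMAP7 from -0.11 to 0.32 on day 5, against pre-irradiation. From day 2 to day 5, GIMAP1 ran from -0.0599 to 0.19 and GIMAP6 from -0.11 to 0.13. From day 2 to day 30, GIMAP5 ran from -0.16 to 0.034, GIMAP6 from -0.11 to 0.0673 and GIMAP7 from -0.36 to 0.15. From day 5 to day 30, GIMAP1 ran from -0.10 to 0.20, GIMAP2 from -0.14 to 0.18 and GIMAP6 from -0.21 to 0.11.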
